A study of Mus musculus with 12 samples.

Results

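The 38 mitosis and spindle genes described here were taken by name from the deposited gene table of an RNA-seq experiment in G1E-ER4 cells, and they are 38 of its 17210 genes. All 38 were among the 11177 genes that passed the filter on low counts, with 429 to 17249 estimated reads per gene and library. G1E-ER4 is a mouse erythroid progenitor line that lacks its own GATA1 and carries GATA1 fused to the estrogen receptor ligand-binding domain, so that β-estradiol (EST) turns the fusion on. The cells were transduced for 24 h with an empty retrovirus (Vector) or with one carrying an active, FLAG-tagged SREBP2 fragment (residues 1 to 468), and some were given EST for the next 6 h while the rest stayed untreated, and each of the 4 groups (Vector, SREBP2, Vector+EST and SREBP2+EST) has 3 libraries. The sample protocol gives EST at 500 nM and the series design at 200 nM. Cells labelled untreated belong to the vehicle arm of the protocol. All groups share the one cell line and its lack of endogenous GATA1, with the strain given as C57BL/6J, and nothing in the labels states that the 3 libraries of a group came from separate cultures, so p-values measure the spread between these libraries only.

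Mitosis begins when cyclin B bound to Cdk1, released by the Cdc25 phosphatases, starts chromosome condensation and spindle assembly. Kinetochores built on the centromeric histone CENP-A then attach chromosomes to spindle microtubules, and the spindle checkpoint holds the anaphase-promoting complex (APC/C) inactive until every chromosome is attached. The APC/C with its activator Cdc20 then frees separase to cut cohesin, after which the central spindle and the contractile ring divide the cell. Many of these genes are transcribed in G2 and M phase, under control of the DREAM and MuvB complexes, B-Myb and FOXM1. Erythroid progenitors divide rapidly until GATA1-driven maturation leads them out of the cell cycle.

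Library totals lay between 18700959 and 19152281 estimated reads, so depth differed little between libraries. Srebf2, the gene for SREBP2, stood at 355 to 370.4 CPM (reads on a common scale of library totals after TMM scaling) in Vector, 432 to 456 in Vector+EST, 797 to 837 in SREBP2 and 801 to 814 in SREBP2+EST, higher in all 6 libraries given the SREBP2 virus. These are reads of the mouse gene, whereas the paper quantified human SREBP2 mRNA in its overexpressing G1E-ER4 cells. How many of them came from the virus was not tested. Gata2, a gene that active GATA1 represses, had a log2 fold change of -2.05 ± 0.05 (SE, adjusted p = 3.43e-15) with EST in Vector cells and of -2.30 ± 0.05 (SE, adjusted p = 7.92e-16) with SREBP2 without EST. Reads of Gata1 itself also fell, by -1.97 ± 0.07 (SE, adjusted p = 5e-13) and -1.67 ± 0.07 (SE, adjusted p = 2.17e-12). Gata1 stood at 1752 to 1786 CPM in Vector, 420 to 471 in Vector+EST, 511 to 585 in SREBP2 and 469 to 577 in SREBP2+EST. The origin of these reads, fusion or other, was not tested. The labels call the cells embryonic stem cells, but the 6 of 10 embryonic stem cell markers found in the table stayed under 1 CPM in every library, whereas all 10 erythroid markers passed the filter. SREBP2 library 1 and SREBP2+EST library 1 (numbers as in the count table) stood apart: a chi-square per gene against the other libraries of their group was 6.195 to 10.6, compared with 1.80 to 3.32 for all other pairs, and the counts of called genes are given with and without both. Fibroblast markers (9 of 10 in the table) set Vector+EST library 5 and the 3 SREBP2+EST libraries apart: Col1a1 stood at 13.4 CPM in the former and 6.50 to 13.8 in the latter, and at most 0.0542 in the other 8 libraries, with Fn1, Igfbp7, Col3a1 and Mmp2 raised in the same 4 libraries and Dcn and Lum under 1 CPM throughout. The summed level was 5.07 to 37.04 CPM in Vector+EST, 19.01 to 35.99 in SREBP2+EST, 4.45 to 6.07 in SREBP2 and 19.7 to 20.8 in Vector, where Col1a2 alone made up 18.9 to 19.9. Summed neural markers (8 of 8 in the table) were 10.8 to 12.6 CPM in Vector and 2.18 to 5.31 elsewhere, and mast and myeloid markers (6 of 8) 12.03 to 12.49 and 2.06 to 4.55. Megakaryocyte markers (5 of 6) were 11.5 to 12.8 CPM in Vector+EST and 39.1 to 61.8 elsewhere, and erythroid markers (10 of 10) 7802 to 8213 in Vector and 5902 to 6960 elsewhere. The part of other cells in the results was not tested.

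The start regions of the genes are shown first, because many of them share short motifs there that the choice of genes did not use. Windows of 300 bases (250 before to 50 after the annotated start, RefSeq, GRCm38.p6) were matched for 31 of the 38. The motifs searched, on both strands, were CCAAT (the box bound by NF-Y) and TTTGAA or TTCGAA (the cell cycle genes homology region, CHR, to which MuvB complexes bind), each counted once per position, also where matches overlapped. CCAAT lay in 24 of 31 windows (77.4%), against 40.5% of the 9055 tested genes with a window and 37.9% of all 27025. A CHR match lay in 25 of 31 (80.6%), against 14.8% and 19.4%, and both motifs in 22 (71.0%), against 6.62% and 7.70%. 5 windows follow, 5′ to 3′ on the strand of the gene, with the motifs of either strand in capitals: those of Cdc25b, Cenpa and Nusap1, which rose most in their roles, and those of Cdk1 and Bub1b, which fell.
Cdc25b (chr2:131186698-131186997, plus strand): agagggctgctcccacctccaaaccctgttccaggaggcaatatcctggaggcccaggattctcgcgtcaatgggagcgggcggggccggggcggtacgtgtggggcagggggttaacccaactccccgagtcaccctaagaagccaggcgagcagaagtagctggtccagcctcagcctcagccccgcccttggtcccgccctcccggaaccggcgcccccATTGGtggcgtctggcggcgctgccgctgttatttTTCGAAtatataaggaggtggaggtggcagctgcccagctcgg
Cenpa (chr5:30666636-30666935, plus strand): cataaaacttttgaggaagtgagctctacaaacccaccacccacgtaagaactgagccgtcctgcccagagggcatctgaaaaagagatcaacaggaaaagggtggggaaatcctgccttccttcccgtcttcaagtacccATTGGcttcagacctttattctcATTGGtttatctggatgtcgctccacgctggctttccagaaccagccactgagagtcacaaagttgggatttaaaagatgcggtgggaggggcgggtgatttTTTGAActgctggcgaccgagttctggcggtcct
Nusap1 (chr2:119618048-119618347, plus strand): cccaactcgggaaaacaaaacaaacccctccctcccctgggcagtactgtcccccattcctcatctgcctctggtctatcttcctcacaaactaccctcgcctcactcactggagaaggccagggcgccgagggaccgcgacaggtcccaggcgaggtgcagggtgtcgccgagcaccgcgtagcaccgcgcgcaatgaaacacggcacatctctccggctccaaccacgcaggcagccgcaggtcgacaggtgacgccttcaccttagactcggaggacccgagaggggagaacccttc
Cdk1 (chr10:69352863-69353162, minus strand): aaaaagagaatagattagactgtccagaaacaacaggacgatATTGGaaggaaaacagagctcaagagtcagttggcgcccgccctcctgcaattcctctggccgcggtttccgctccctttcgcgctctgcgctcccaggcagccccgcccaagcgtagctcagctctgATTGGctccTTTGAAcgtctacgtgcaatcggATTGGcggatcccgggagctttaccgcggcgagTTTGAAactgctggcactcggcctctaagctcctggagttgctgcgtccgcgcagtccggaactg
Bub1b (chr2:118597961-118598260, plus strand): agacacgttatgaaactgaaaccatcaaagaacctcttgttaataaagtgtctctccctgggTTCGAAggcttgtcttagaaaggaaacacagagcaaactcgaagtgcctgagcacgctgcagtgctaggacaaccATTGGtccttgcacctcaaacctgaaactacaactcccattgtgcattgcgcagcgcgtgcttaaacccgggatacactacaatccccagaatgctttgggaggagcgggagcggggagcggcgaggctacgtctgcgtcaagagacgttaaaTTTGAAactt
The window of Nusap1, the gene with the largest EST rise of the 38, held neither motif, and those of Cdk1 and Bub1b, which fell, held both (3 CCAAT and 2 CHR matches in Cdk1, 1 and 2 in Bub1b). A match is a run of letters and not a measured binding site.

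With EST in Vector cells, most of the mitosis and spindle genes rose. Of the 38, 28 were higher and 3 lower (Cdk1, Bub1b and Espl1) at an adjusted p under 0.05 in edgeR's quasi-likelihood test, where 35.2% of all tested genes were called higher and 35.5% lower, and the median log2 fold change of the 38 was 0.31, against 0.01 over all tested genes. Of the 38, 10 rose over 1.5-fold, as did 16.3% of all tested genes. The 38 genes together took 0.572% to 0.579% of the reads of each Vector library and 0.763% to 0.774% of each Vector+EST library. With SREBP2 and no EST, against the same Vector libraries, 24 were higher and 5 lower (Aurkb, Mad2l1, Bub1b, Espl1 and Kif20a), where 37.7% and 33.8% of all tested genes were called, with a median of 0.19 against 0.03, and 8 rose over 1.5-fold, as did 19.5% of tested genes. In bulk RNA, more cells in G2 and M phase and more of these RNAs per cell cannot be told apart. Without Vector+EST library 5, which held the most fibroblast marker reads of its group, 26 were higher and 3 lower with EST (32.0% and 34.9% of tested genes in that fit). Without both libraries numbered 1 that stood apart, which enter this comparison only through the shared fit, 27 were higher and 4 lower (33.7% and 39.1% of tested genes), with Aurkb gained as lower and Cdca8 lost.

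**Figure D1:**
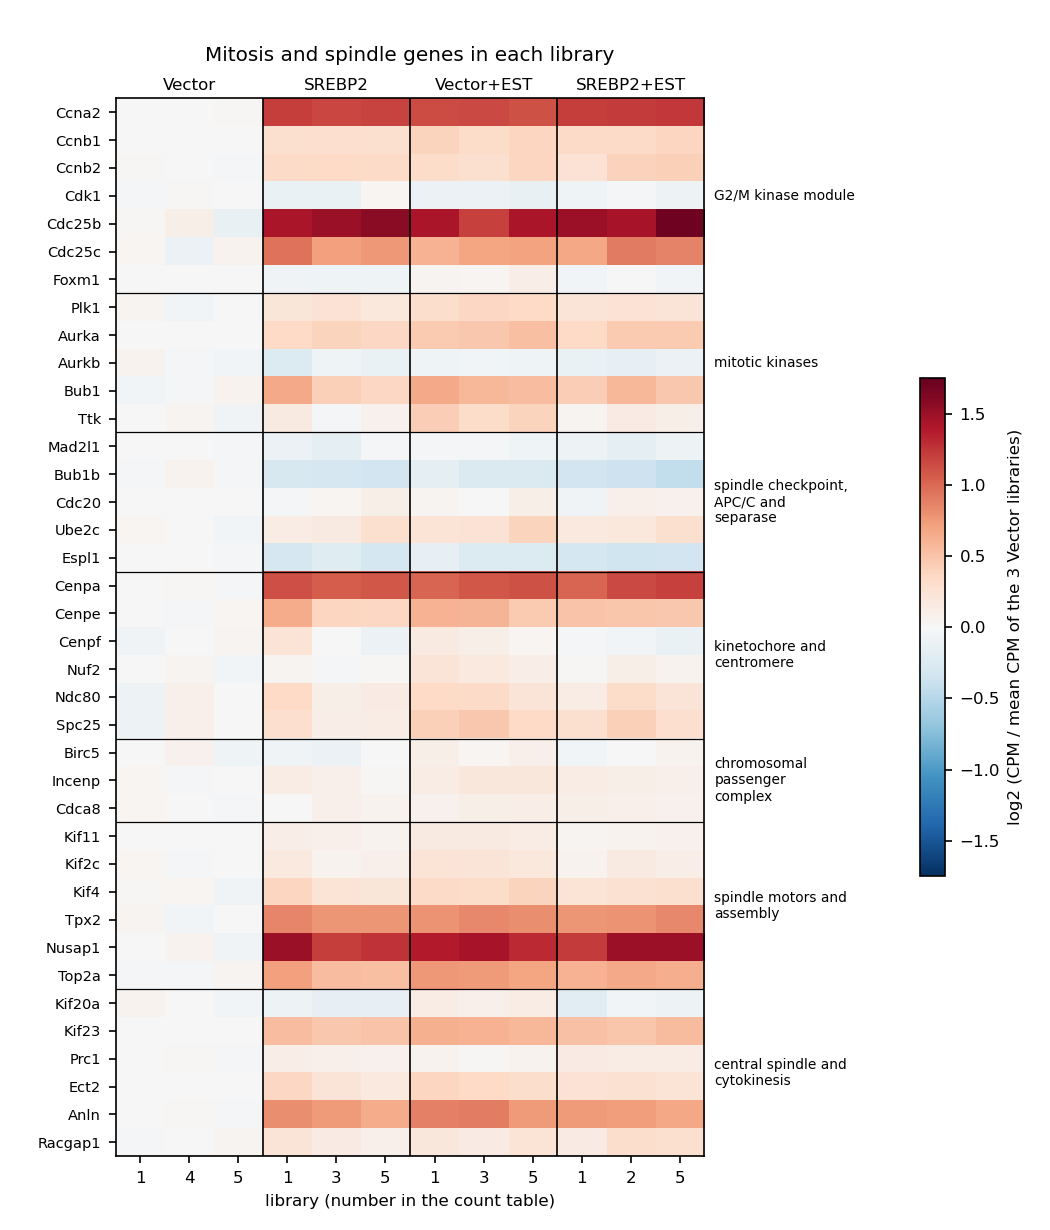
Each row is one of the 38 genes, grouped by role, and each column is a library. Colour gives the log2 ratio of its CPM to the mean of the 3 Vector libraries, with red for higher and blue for lower. Ccna2, Cdc25b, Cenpa and Nusap1 are deep red in all 9 libraries outside Vector, while Bub1b and Espl1 are blue in those 9.

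Among the cyclins, kinases and phosphatases that start mitosis, 5 of 7 rose with EST in Vector cells and 1, Cdk1, fell (35.2% of all tested genes were higher and 35.5% lower). Cdc25b, a phosphatase that activates cyclin-dependent kinases at the G2/M transition, stood at 35.2, 36.999 and 31.6 CPM in Vector, 92.7, 79.7 and 93.2 in Vector+EST, 93.5, 98.2 and 103 in SREBP2 and 97.3, 93.8 and 112 in SREBP2+EST. All 9 libraries outside Vector were above the 3 Vector libraries, by a log2 fold change of 1.35 ± 0.08 (SE, adjusted p = 3.05e-10) with EST and 1.51 ± 0.08 (SE, adjusted p = 6.94e-11) with SREBP2. Cdc25c, the related phosphatase that acts on cyclin B-Cdk1, stood at 24.01, 21.9 and 24.4 CPM in Vector, 35.9, 37.9 and 38.3 in Vector+EST, 45.1, 38.7 and 39.7 in SREBP2 and 37.5, 44.01 and 42.7 in SREBP2+EST. Its groups were again separated from Vector without overlap, with log2 fold changes of 0.67 ± 0.08 (SE, adjusted p = 6.52e-07) and 0.81 ± 0.07 (SE, adjusted p = 5.96e-08). Ccna2, which encodes cyclin A of S and G2 phase, stood at 391, 389 and 398 CPM in Vector, 866, 872 and 848 in Vector+EST, 907, 886 and 889.5 in SREBP2 and 911, 917 and 929 in SREBP2+EST. All 9 libraries outside Vector again lay above it, by 1.14 ± 0.03 (SE, adjusted p = 1.67e-14) with EST and 1.19 ± 0.03 (SE, adjusted p = 5.95e-15) with SREBP2.

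The mitotic B-type cyclins rose less. Ccnb1 stood at 238, 237 and 238 CPM in Vector, 312, 297 and 309 in Vector+EST, 289, 291 and 289 in SREBP2 and 299.8, 298 and 309.9 in SREBP2+EST, which gave log2 fold changes of 0.36 ± 0.03 (SE, adjusted p = 5.21e-08) with EST and 0.29 ± 0.03 (SE, adjusted p = 8.92e-07) with SREBP2. Ccnb2 moved by 0.32 and 0.34, both called. Their partner Cdk1, the kinase that drives entry into mitosis, went the other way and stood at 116, 120.1 and 118 CPM in Vector, 110.2, 110.3 and 108 in Vector+EST, 109, 109 and 121 in SREBP2 and 112, 115 and 112 in SREBP2+EST. The 3 Vector+EST libraries lay below all Vector libraries (-0.11 ± 0.04 SE, adjusted p = 0.0325), a call that was lost in 4 of 20 alternative analyses, while SREBP2 library 5 reached above Vector and the SREBP2 difference was not called (-0.07 ± 0.04 SE, adjusted p = 0.165). It was called lower in 3 of 20 alternative analyses, among them the one without SREBP2 library 5, with values from -0.13 to -0.04 over all 20. Foxm1, a transcription factor of G2/M genes, stood at 102, 101 and 102 CPM in Vector, 105, 104 and 111 in Vector+EST, 97.6, 96.2 and 96.5 in SREBP2 and 98.4, 102 and 98.1 in SREBP2+EST. Vector+EST lay slightly above Vector and SREBP2 slightly below, and neither difference passed the test (log2 0.07 and -0.07, adjusted p = 0.118 and 0.104). The SREBP2 value was called lower in 8 of 20 alternative analyses, DESeq2 among them, and ranged from -0.13 to -0.06.

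**Figure D2:**
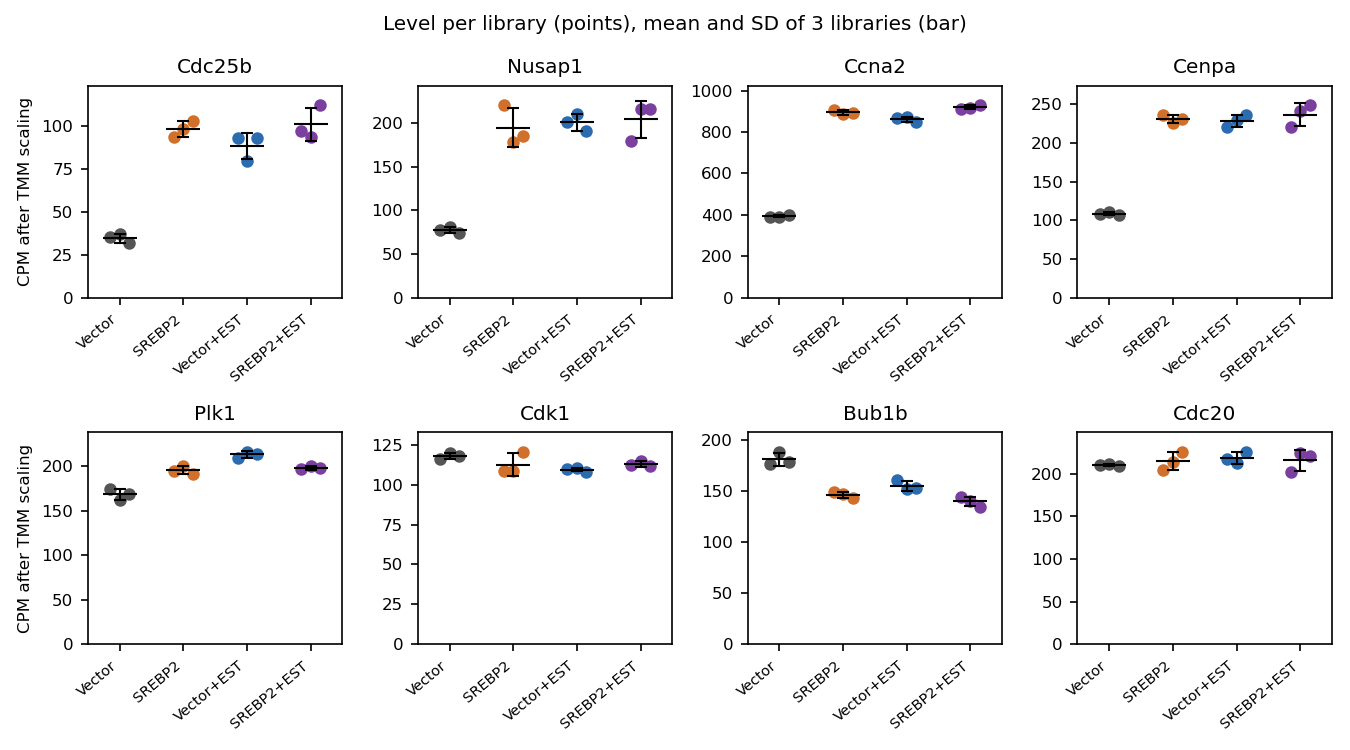
Points are single libraries, bars the mean and SD of the 3 libraries of a group, and the vertical axis is CPM from 0. Cdc25b, Nusap1, Ccna2 and Cenpa are lower in the 3 Vector libraries than in the other 9, Plk1 moves less, Cdk1 and Bub1b are highest on average in Vector, and Cdc20 overlaps between Vector and both SREBP2 groups.

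Of the other mitotic kinases, Plk1, Aurka, Bub1 and Ttk rose with EST in Vector cells and Aurkb did not pass the test. Plk1, polo-like kinase of mitotic entry and spindle assembly, stood at 175, 163 and 168 CPM in Vector, 209, 216 and 214 in Vector+EST, 195, 201 and 192 in SREBP2 and 197, 201 and 198 in SREBP2+EST. The gain was 0.34 ± 0.04 (SE, adjusted p = 4.42e-07) with EST and a smaller 0.21 ± 0.04 (SE, adjusted p = 6.89e-05) with SREBP2, both without overlap with Vector. Aurka, the centrosomal Aurora kinase, stood at 112, 113 and 113 CPM in Vector, 155, 157 and 163 in Vector+EST, 144, 148 and 146 in SREBP2 and 144, 155 and 155 in SREBP2+EST, a rise of 0.49 ± 0.04 (SE, adjusted p = 1.28e-08) with EST and 0.37 ± 0.04 (SE, adjusted p = 3.33e-07) with SREBP2. Aurkb, the Aurora kinase of the chromosomal passenger complex, stood at 134, 126 and 124 CPM in Vector, 122, 123 and 122 in Vector+EST, 108, 122 and 118 in SREBP2 and 118, 116 and 119 in SREBP2+EST. Every library outside Vector lay below the Vector libraries, with log2 fold changes of -0.07 ± 0.04 (SE, adjusted p = 0.187) with EST, which was not called, and -0.14 ± 0.04 (SE, adjusted p = 0.00925) with SREBP2, which was. The EST value was called lower in 3 of 20 alternative analyses, with a range of -0.13 to -0.04 (for example without Vector library 5), and the SREBP2 call was lost in 1, without Vector library 1.

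Bub1, a checkpoint kinase at kinetochores, stood at 85.9, 87.5 and 92.2 CPM in Vector, 139.8, 132 and 129 in Vector+EST, 140.3, 118 and 114 in SREBP2 and 119, 132 and 123 in SREBP2+EST. SREBP2 library 1 was the highest of its group by a wide margin, and the rise was 0.59 ± 0.07 (SE, adjusted p = 7.21e-07) with EST and 0.49 ± 0.07 (SE, adjusted p = 7.02e-06) with SREBP2. Ttk (Mps1), the kinase that starts checkpoint signalling, stood at 62.4, 64.1 and 59.6 CPM in Vector, 83.3, 77.4 and 80.98 in Vector+EST, 69.3, 60.3 and 65.2 in SREBP2 and 63.9, 68.5 and 66.3 in SREBP2+EST. Only Vector+EST was separated from Vector, at 0.38 ± 0.05 (SE, adjusted p = 8.87e-06), while SREBP2 overlapped Vector at 0.07 ± 0.05 (SE, adjusted p = 0.286).

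The checkpoint and anaphase genes did not rise as a block. Bub1b (BubR1), part of the inhibitor that holds back the APC/C, had the largest fall of the 38 and stood at 177, 189 and 179 CPM in Vector, 161, 152 and 153 in Vector+EST, 149, 148 and 143 in SREBP2 and 144, 141 and 135 in SREBP2+EST. All 9 libraries outside Vector were lower, with log2 fold changes of -0.23 ± 0.04 (SE, adjusted p = 0.000119) with EST and -0.31 ± 0.04 (SE, adjusted p = 4.57e-06) with SREBP2. Espl1, separase itself, stood at 131, 130.4 and 128 CPM in Vector, 118, 109.7 and 110.5 in Vector+EST, 106, 112 and 105 in SREBP2 and 105, 102 and 103 in SREBP2+EST, again lower in all 9 (-0.21 ± 0.04 SE, adjusted p = 0.000226 with EST, and -0.27 ± 0.04 SE, adjusted p = 1.7e-05 with SREBP2). Mad2l1 (Mad2), the checkpoint protein that captures Cdc20, stood at 171, 171 and 168 CPM in Vector, 166, 168 and 161 in Vector+EST, 158, 151 and 166 in SREBP2 and 159, 152 and 160.3 in SREBP2+EST. The fall passed the test with SREBP2 (-0.10 ± 0.04 SE, adjusted p = 0.0353), the EST value did not (-0.04 ± 0.04 SE, adjusted p = 0.361), and the SREBP2 call was lost in 5 of 20 alternative analyses.

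Cdc20, the APC/C activator, stood at 211, 211 and 209 CPM in Vector, 218, 212 and 226 in Vector+EST, 205, 214 and 226 in SREBP2 and 202, 224 and 221 in SREBP2+EST. Its 12 libraries lay within a narrow band and neither difference was called (0.06 ± 0.05 SE, adjusted p = 0.292 with EST, and 0.03 ± 0.05 SE, adjusted p = 0.55 with SREBP2). Ube2c, the ubiquitin-conjugating enzyme of the APC/C, was the riser of this role and stood at 238, 233 and 224 CPM in Vector, 274, 277 and 304 in Vector+EST, 253, 258 and 283 in SREBP2 and 262, 264 and 282 in SREBP2+EST. It gained 0.30 ± 0.05 (SE, adjusted p = 7.03e-05) with EST and 0.19 ± 0.05 (SE, adjusted p = 0.00342) with SREBP2, the latter a call lost without Vector library 5 (adjusted p = 0.0631).

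Kinetochore and centromere genes rose with EST in 5 of 6 cases, with none lower (35.2% and 35.5% of tested genes). Cenpa, the centromeric histone H3 variant, stood at 108, 110.3 and 107 CPM in Vector, 220.5, 230.3 and 236 in Vector+EST, 237, 226 and 231 in SREBP2 and 221, 241 and 249 in SREBP2+EST. All 9 libraries outside Vector stood above the Vector libraries, with log2 fold changes of 1.07 ± 0.05 (SE, adjusted p = 5.57e-12) for EST and 1.09 ± 0.05 (SE, adjusted p = 3.74e-12) for SREBP2. Cenpe, a kinetochore motor that brings chromosomes to the spindle equator, stood at 84.2, 83.5 and 86.6 CPM in Vector, 129.6, 128 and 117 in Vector+EST, 133, 109.6 and 109 in SREBP2 and 119, 118 and 118 in SREBP2+EST. SREBP2 library 1 was again highest, and the changes were 0.56 ± 0.06 (SE, adjusted p = 1.06e-06) and 0.47 ± 0.07 (SE, adjusted p = 7.48e-06). Ndc80, the microtubule-binding subunit of the complex of that name, stood at 44.1, 49.6 and 46.8 CPM in Vector, 59.5, 59.1 and 54.7 in Vector+EST, 59.4, 50.1 and 51.7 in SREBP2 and 51.4, 58.5 and 54.98 in SREBP2+EST. EST raised it by 0.30 ± 0.07 (SE, adjusted p = 0.000975) and SREBP2 by 0.20 ± 0.07 (SE, adjusted p = 0.0179), the latter lost in 5 of 20 alternative analyses.

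Of the other subunits of the Ndc80 complex, Spc24, which is not among the 38, stood at -0.04 with EST (adjusted p = 0.547) and -0.06 with SREBP2 (adjusted p = 0.269) and was not called. Spc25 rose by 0.41 with EST and 0.18 with SREBP2, the latter a call lost in 6 of 20 alternative analyses. Nuf2 rose by 0.18 with EST (adjusted p = 0.00184, and 0.0602 without Vector library 5) and moved by 0.01 with SREBP2 (adjusted p = 0.82). Cenpf, a large kinetochore and nuclear matrix protein, stood at 86.8, 91.2 and 93.6 CPM in Vector, 101, 97.05 and 92.5 in Vector+EST, 107, 90.04 and 83.98 in SREBP2 and 88.3, 87.3 and 83.4 in SREBP2+EST. Its SREBP2 libraries spread wider than those of any other of the 38 in any group (coefficient of variation 12.5%), and it was called in neither comparison (0.10 ± 0.07 SE, adjusted p = 0.217 with EST, and 0.05 ± 0.07 SE, adjusted p = 0.547 with SREBP2). Without SREBP2 library 1 its SREBP2 value turned to -0.06, and its EST value was called higher in 1 of 20 alternative analyses.

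The 3 listed subunits of the chromosomal passenger complex other than Aurkb all had EST values under 0.2. Birc5 (survivin) stood at 154, 163 and 147 CPM in Vector, 165, 159 and 165 in Vector+EST, 149, 144 and 155 in SREBP2 and 149, 154 and 161 in SREBP2+EST, with overlap between Vector and every other group and no call (0.08 ± 0.05 SE, adjusted p = 0.148 with EST, and -0.05 ± 0.05 SE, adjusted p = 0.33 with SREBP2). Incenp, the scaffold of the complex, rose by 0.18 with EST (adjusted p = 0.000515), and its SREBP2 value of 0.08 was not called. Cdca8 (borealin) rose by 0.10 with EST (adjusted p = 0.0201), a call lost in 11 of 20 alternative analyses, and its SREBP2 value of 0.05 was not called. With SREBP2, edgeR called 0 of the 3 in either direction, where 37.7% of tested genes were called higher and 33.8% lower. Of the 3, 1, Incenp, had an unadjusted p under 0.05. Birc5 was called, as lower, in 2 of 20 alternative analyses and Incenp in 1.

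All 6 spindle motors and assembly factors were called higher in both comparisons, where 35.2% of tested genes were with EST and 37.7% with SREBP2, but the SREBP2 calls of Kif11 and Kif2c were lost in 15 and 14 of 20 alternative analyses. Nusap1, a microtubule-bundling protein of the spindle, stood at 77.2, 80.4 and 73.7 CPM in Vector, 202, 210.1 and 191 in Vector+EST, 221, 179 and 185 in SREBP2 and 179.8, 217 and 217 in SREBP2+EST. It had the largest EST rise of the 38 at 1.38 ± 0.08 (SE, adjusted p = 2.87e-10), and gained 1.34 ± 0.08 (SE, adjusted p = 3.83e-10) with SREBP2, with wide spread in SREBP2+EST (coefficient of variation 10.4%). Tpx2, which activates Aurora A on spindle microtubules, stood at 248, 232 and 239 CPM in Vector, 413, 431 and 422 in Vector+EST, 432, 408 and 409 in SREBP2 and 411, 414 and 431 in SREBP2+EST. It rose by 0.82 ± 0.04 (SE, adjusted p = 1.53e-11) with EST and 0.80 ± 0.04 (SE, adjusted p = 1.75e-11) with SREBP2, with no overlap with Vector. Top2a, the topoisomerase that untangles chromosomes, stood at 505, 505 and 531 CPM in Vector, 869, 861 and 830.4 in Vector+EST, 843, 745 and 741 in SREBP2 and 780.1, 812 and 796 in SREBP2+EST. The EST libraries lay above all Vector libraries by 0.73 ± 0.05 (SE, adjusted p = 4.9e-10), and the SREBP2 libraries by 0.59 ± 0.05 (SE, adjusted p = 5.64e-09).

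The kinesins of this role rose less. Kif11 (Eg5), the motor that pushes spindle poles apart, stood at 179, 178 and 181 CPM in Vector, 200.5, 201 and 197 in Vector+EST, 195, 191 and 188 in SREBP2 and 185, 187 and 189 in SREBP2+EST. Its values were 0.15 ± 0.03 (SE, adjusted p = 0.000542) with EST and 0.09 ± 0.03 (SE, adjusted p = 0.0196) with SREBP2. Kif2c (MCAK), a microtubule depolymerase at centromeres, stood at 82.4, 79.9 and 80.3 CPM in Vector, 95.005, 94.5 and 92.1 in Vector+EST, 91.3, 84.6 and 85.98 in SREBP2 and 84.5, 90.1 and 87.5 in SREBP2+EST, a change of 0.22 ± 0.04 (SE, adjusted p = 0.000229) with EST and 0.11 ± 0.04 (SE, adjusted p = 0.0267) with SREBP2. Kif4, a chromosome-bound kinesin, rose by 0.35 and 0.28.

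Central spindle and cytokinesis genes rose in 5 of 6 cases with EST, with none lower (35.2% and 35.5% of tested genes). Anln (anillin), which links the contractile ring to the membrane, stood at 120.2, 122 and 117 CPM in Vector, 221, 223 and 202 in Vector+EST, 211, 201 and 189 in SREBP2 and 201, 199 and 192 in SREBP2+EST. It rose by 0.84 ± 0.05 (SE, adjusted p = 2e-10) with EST and 0.74 ± 0.05 (SE, adjusted p = 9.3e-10) with SREBP2, without overlap with Vector. Kif23 (MKLP1), the motor of centralspindlin, stood at 104, 105 and 105 CPM in Vector, 160.3, 159.6 and 157 in Vector+EST, 152, 145 and 148 in SREBP2 and 149, 146 and 153 in SREBP2+EST. The corresponding rises were 0.60 ± 0.04 (SE, adjusted p = 3.23e-10) and 0.51 ± 0.04 (SE, adjusted p = 2.77e-09), and its partner Racgap1 rose by 0.19 and 0.15, the latter a call lost in 3 of 20 alternative analyses. Ect2, the exchange factor that activates RhoA at the division site, stood at 61.7, 60.9 and 60.97 CPM in Vector, 79.4, 78.2 and 75.7 in Vector+EST, 78.3, 71.6 and 68.8 in SREBP2 and 73.2, 73.9 and 71.9 in SREBP2+EST, with rises of 0.35 ± 0.05 (SE, adjusted p = 6.53e-06) and 0.25 ± 0.05 (SE, adjusted p = 0.000172).

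Kif20a and Prc1 departed from that pattern. Kif20a (MKLP2), a kinesin that carries the passenger complex to the central spindle, stood at 207, 198 and 193 CPM in Vector, 217, 212 and 218 in Vector+EST, 187, 179.7 and 179.8 in SREBP2 and 174, 192 and 186 in SREBP2+EST. It was the one gene called in opposite directions, with Vector+EST above Vector (0.11 ± 0.04 SE, adjusted p = 0.0211) and SREBP2 below it (-0.13 ± 0.04 SE, adjusted p = 0.0117), calls that were lost in 7 and 2 of 20 alternative analyses. Prc1, the protein that crosslinks central spindle microtubules, stood at 242, 244 and 237 CPM in Vector, 251, 245 and 252 in Vector+EST, 261, 257 and 254 in SREBP2 and 265, 265 and 264 in SREBP2+EST. It was not called with EST (0.05 ± 0.03 SE, adjusted p = 0.168) and was called higher with SREBP2 (0.09 ± 0.03 SE, adjusted p = 0.0132), a call lost in 10 of 20 alternative analyses.

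**Figure D3:**
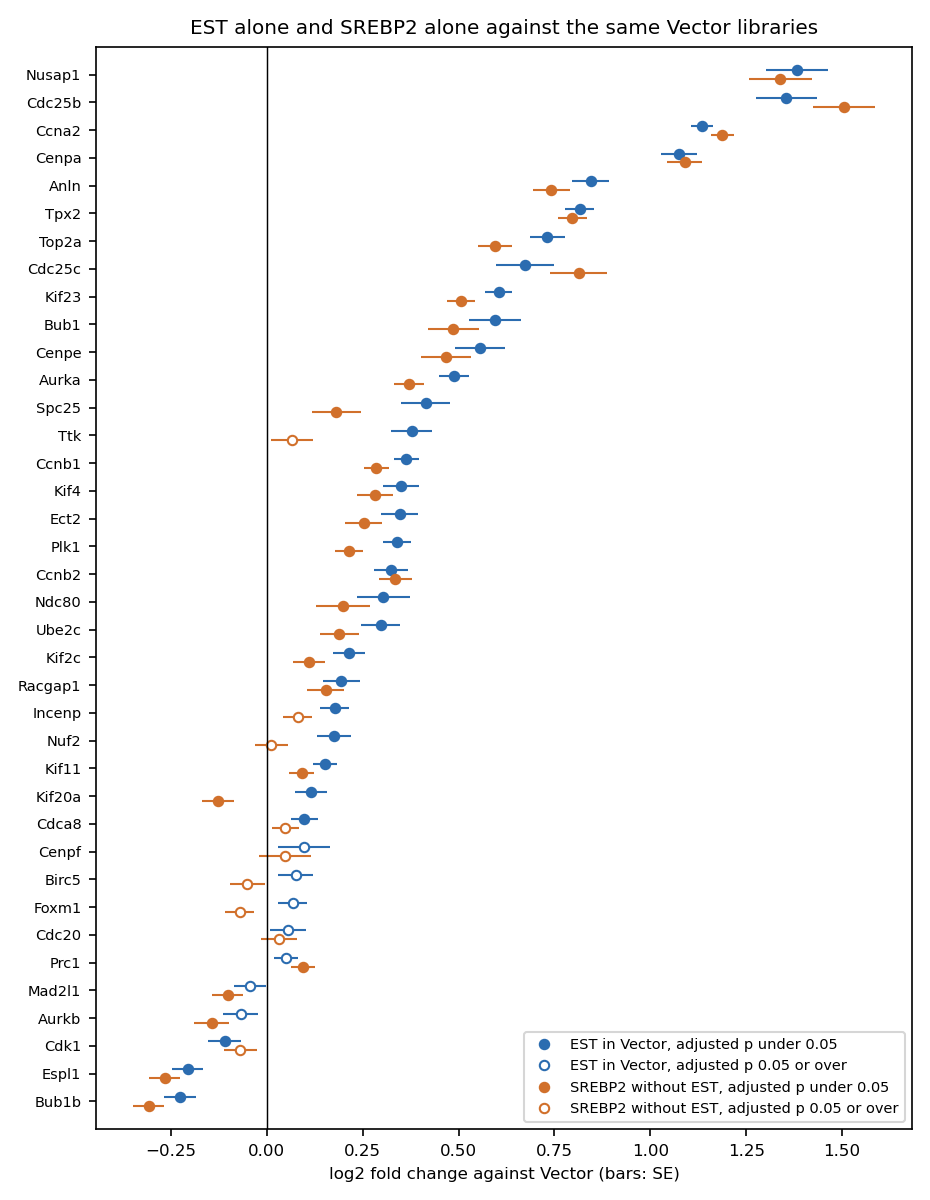
Log2 fold changes against Vector for EST alone (blue) and SREBP2 alone (orange), with bars for the SE derived from the edgeR F statistic, ordered by the EST value. Filled points had an adjusted p under 0.05. Values run from -0.23 (Bub1b) to 1.38 (Nusap1) with EST and from -0.31 (Bub1b) to 1.51 (Cdc25b) with SREBP2, and both sets are taken against the same 3 Vector libraries.

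The SREBP2 count against Vector moved with scaling and with single libraries of both groups. With library totals alone, 18 were higher and 8 lower, where 33.8% and 37.7% of tested genes were called, and without SREBP2 library 1 and SREBP2+EST library 1 together 18 were higher and 6 lower, where 34.3% and 36.4% were, with a median log2 fold change of 0.08. Leaving out SREBP2 library 1 alone gave 20 higher and 4 lower (36.0% and 32.7% of tested genes, median of the 38 0.12), Vector library 5 alone 18 and 7 (32.8% and 34.1%) and Vector library 1 alone 21 and 2 (35.3% and 31.7%). The fit without both libraries numbered 1 lost the calls of Ndc80, Spc25, Kif11, Kif2c, Prc1 and Racgap1 (values 0.04 to 0.08), gained Foxm1 as lower (-0.12) and moved Ect2 from 0.25 to 0.16. SREBP2 library 1 was the highest of its group for 25 of the 38 genes, where it was highest for 37.05% of all tested genes, and SREBP2+EST library 1 was the lowest of its group for 22, against 37.6%. The 38 genes took 0.746% of the reads of SREBP2 library 1, and 0.701% and 0.699% of libraries 3 and 5.

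The 2 treatments were also set against each other directly. Against Vector+EST, SREBP2 cells had 8 of the 38 lower and none higher, where 8.96% and 14.4% of tested genes were called, and the median log2 fold change was -0.08 against -0.00 over all tested genes. None higher means 0 in edgeR and 0 in DESeq2, and 15 of the 38 had an unadjusted p under 0.05 in either direction. The largest difference was that of Ttk, whose SREBP2 libraries all lay below the Vector+EST libraries (-0.31 ± 0.05 SE, adjusted p = 0.000406). Kif20a followed (-0.24 ± 0.04 SE, adjusted p = 0.000417), then Spc25 (-0.23 ± 0.06 SE, adjusted p = 0.0137) and Nuf2 (-0.16 ± 0.04 SE, adjusted p = 0.0123). Foxm1 and Top2a stood at -0.14 and -0.14, and the kinases Aurka and Plk1 at -0.12 and -0.12. The calls were lost in 14 of 20 alternative analyses for Aurka, 10 for Top2a, 4 each for Foxm1 and Plk1, 3 for Spc25 and 2 for Nuf2, and in none for Ttk and Kif20a. Cdc25b had the highest value, 0.15 ± 0.07 (SE, adjusted p = 0.162), which was not called. With library totals alone 19 were lower and 0 higher (16.7% and 12.2% of tested genes, median of the 38 -0.12), and the higher share of all calls over the tested genes went from 61.7% to 42.2%. Without both libraries numbered 1, 20 were lower and 1, Cdc25b, higher at 0.18, where 15.7% and 18.7% of tested genes were called.

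SREBP2 on top of EST changed few of the genes. SREBP2+EST against Vector+EST had 1 of the 38 higher and 4 lower, where 14.0% and 7.94% of tested genes were called, with a median log2 fold change of -0.07 against -0.00 over all tested genes. Ttk again fell furthest (-0.28 ± 0.05 SE, adjusted p = 0.00102), with Kif20a next (-0.23 ± 0.04 SE, adjusted p = 0.000848) and the already lowered Bub1b (-0.15 ± 0.04 SE, adjusted p = 0.0168) and Espl1 (-0.13 ± 0.04 SE, adjusted p = 0.0334) after them. Ccna2 was the gene called higher (0.09 ± 0.03 SE, adjusted p = 0.0285), and that call was lost in 9 of 20 alternative analyses. The calls of Espl1 and Bub1b were lost in 6 and 3 of 20, the replicate block among them in both cases, and those of Ttk and Kif20a in none. Cdc25b had the highest value of the 38, 0.19 ± 0.07 (SE, adjusted p = 0.0776), and was not called, with SREBP2+EST libraries all above the Vector+EST libraries, and it was called in 3 of 20 alternative analyses. This comparison and the direct one share the Vector+EST libraries. Lower counts ranged from 2 to 16 over the other analyses. Scaling by library totals gave the 16, with 0 higher (15.8% and 11.6% of tested genes, median of the 38 -0.12), and at that scaling 42.2% of all calls over the tested genes were in the higher direction and not 63.7%. Without both libraries numbered 1, 5 were higher and 9 lower, where 16.8% and 14.0% of tested genes were called.

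EST in cells that already had SREBP2 changed none of the 38 past the test. The count of 0 higher and 0 lower in edgeR stood beside 0.00% and 0.00% of tested genes called, and DESeq2 called none of the 38 either. Of the 38, 1 had an unadjusted p under 0.05. Spc25 had the highest value, 0.15 ± 0.06 (SE, adjusted p = 0.919), and Cenpf the lowest, -0.12 ± 0.07 (SE, adjusted p = 0.919). The median of the 38 was 0.02, with all values between -0.12 and 0.15, and the median ran from 0.01 to 0.04 when 1 library was left out and was 0.06 without both libraries numbered 1. Leaving out both libraries numbered 1 gave calls across the whole table, 6.18% of tested genes higher and 7.70% lower. Of the 38, 4 were then higher and 0 lower: Nusap1 at 0.25 ± 0.04, Spc25 at 0.24 ± 0.06, Racgap1 at 0.18 ± 0.04 and Top2a at 0.12 ± 0.04 (adjusted p = 0.000778, 0.0145, 0.00515 and 0.0331 in edgeR).

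Whether the EST response was of the same size with and without SREBP2 was tested by the interaction term, the EST log2 fold change in SREBP2 cells minus that in Vector cells. It was lower for 24 of the 38 and higher for 2, where 29.2% and 29.8% of tested genes were called, with a median of -0.27 against -0.00. Cdc25b had the lowest value (-1.31 ± 0.11 SE, adjusted p = 4.07e-08), with an EST log2 fold change of 1.35 in Vector cells beside 0.04 in SREBP2 cells. Nusap1 was next (-1.31 ± 0.11 SE, adjusted p = 5.84e-08), with 1.38 beside 0.07. Ccna2 (-1.10), Cenpa (-1.04), Anln (-0.87) and Tpx2 (-0.81) followed. Bub1b (0.16 ± 0.06 SE, adjusted p = 0.0273) and Espl1 (0.14 ± 0.06 SE, adjusted p = 0.046), which EST lowered in Vector cells, were the genes called higher. Those calls were lost in 4 and 9 of 19 alternative analyses. Among the lower calls, those of Incenp and Ndc80 were each lost in 8 of 19, that of Spc25 in 5 and those of Kif11 and Kif2c in 1 each. Without both libraries numbered 1 that stood apart, 20 were lower and 2 higher (25.8% and 31.3% of tested genes), the median was -0.18 against 0.04 over all tested genes, and the calls of Ndc80, Spc25, Incenp and Kif2c were lost.

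**Figure D4:**
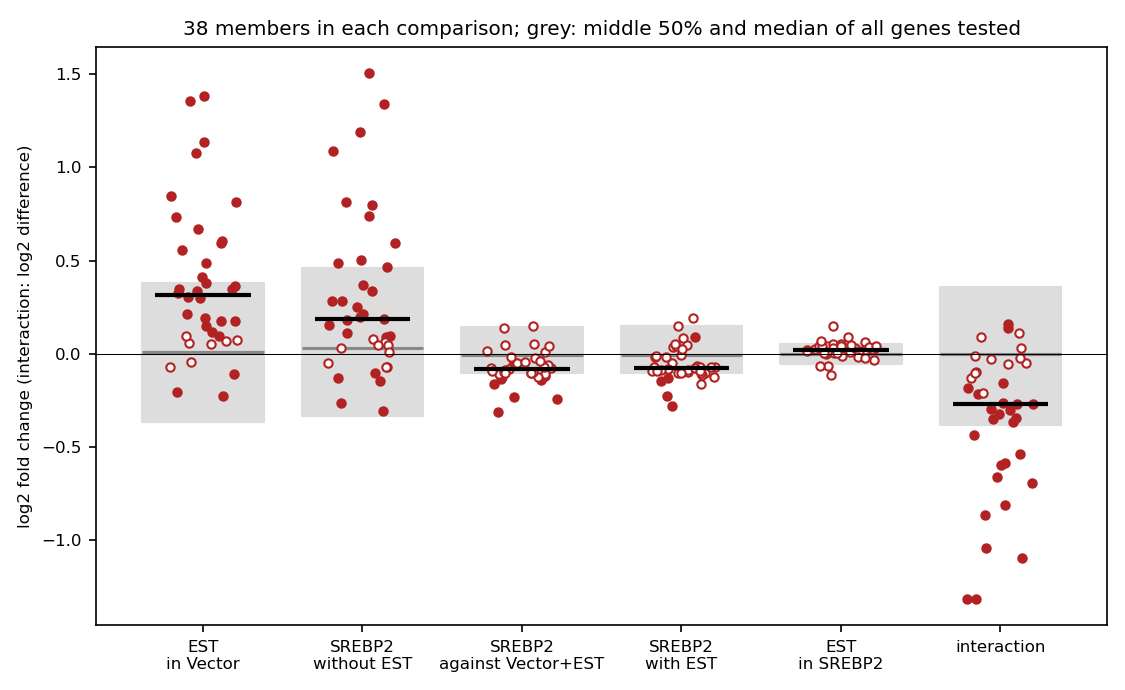
Each point is one of the 38 genes, filled where its adjusted p was under 0.05; the black line is their median, and the grey box and line give the middle 50% and the median of all 11177 tested genes. Medians of 0.31 and 0.19 against Vector contrast with -0.08, -0.07 and 0.02 among the other groups, and the interaction median is -0.27.

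By mean level, Vector was the lowest group for 29 of the 38 genes, where it was lowest for 44.4% of all tested genes. Vector+EST was the highest for 25 of the 38 (23.3% of tested genes), SREBP2+EST for 8 (20.3%), Vector for 5 (40.8%) and SREBP2 for 0 (15.6%). The order Vector, SREBP2, SREBP2+EST, Vector+EST from low to high held for 18 of the 38 and for 11.4% of tested genes. This is an order of means. Among these 18 genes, Ttk was the one called lower in SREBP2+EST than in Vector+EST, where 7.94% of tested genes were. None was called between SREBP2+EST and SREBP2, where 0.00% of tested genes were. The median coefficient of variation of the 38 within a group was 2.47% in Vector, 2.97% in Vector+EST, 4.44% in SREBP2 and 2.82% in SREBP2+EST, and Cdc25b spread widest in Vector (7.88%) and Vector+EST (8.66%).

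Further genes of the same machinery were counted on lists that leave out the 38, beside the 35.2% higher and 35.5% lower over all tested genes (median 0.01), and differences between the lists were not tested. With EST in Vector cells, 16 of 26 other kinesins and spindle proteins were higher and 2 lower, or 61.5% and 7.69%, with a median log2 fold change of 0.20. Fam83d, which recruits a kinase to the spindle, had the largest rise of all these lists and stood at 15.9, 14.6 and 16.7 CPM in Vector, 127, 123 and 129.6 in Vector+EST, 116, 113 and 108 in SREBP2 and 107, 119.7 and 117 in SREBP2+EST. That was 3.01 ± 0.06 (SE, adjusted p = 1.68e-15) with EST and 2.84 ± 0.06 (SE, adjusted p = 1.44e-15) with SREBP2, with no overlap with Vector. Condensin and cohesin genes were higher in 10 of 17 cases and lower in 3 (median 0.11), and other outer kinetochore genes in 5 and 0 of 10 (median 0.08). Other cytokinesis genes were higher in 6 and lower in 3 of the 9 tested, from Cep55, an abscission scaffold, at 1.72 to Septin9, a septin, at -1.86.

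Counts of the remaining lists, against the same 35.2% and 35.5%, follow. Other G2/M entry regulators were higher in 7 and lower in 3 of 16 (median 0.13), from Cks2 at 0.87 to Pkmyt1, an inhibitory kinase of Cdk1, at -0.78. Inner kinetochore and CENP-A loading genes were higher in 6 of 17 (35.3%) and lower in 3, APC/C subunits in 4 and 5 of 16, and other spindle checkpoint genes in 2 and 3 of 10. DREAM and E2F factors were higher in 6 and lower in 9 of 18, with E2f2 lowest at -1.64.

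Genes of DNA replication in S phase were counted for comparison. With EST in Vector cells, 12 of 35 were higher (34.3%, near the 35.2% over all tested genes) and 17 lower (48.6% against 35.5%), with a median of -0.07. With SREBP2 without EST, 6 were higher and 22 lower (17.1% and 62.9% against 37.7% and 33.8%, median -0.31), and with SREBP2 on top of EST 0 and 27 (77.1% lower against 7.94%, median -0.20). In the last comparison 29 of the 35 had an unadjusted p under 0.05 in edgeR, and 34 had a negative value. The corresponding counts of the 38 mitosis and spindle genes were 28 and 3, 24 and 5, and 1 and 4.

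**Figure D5:**
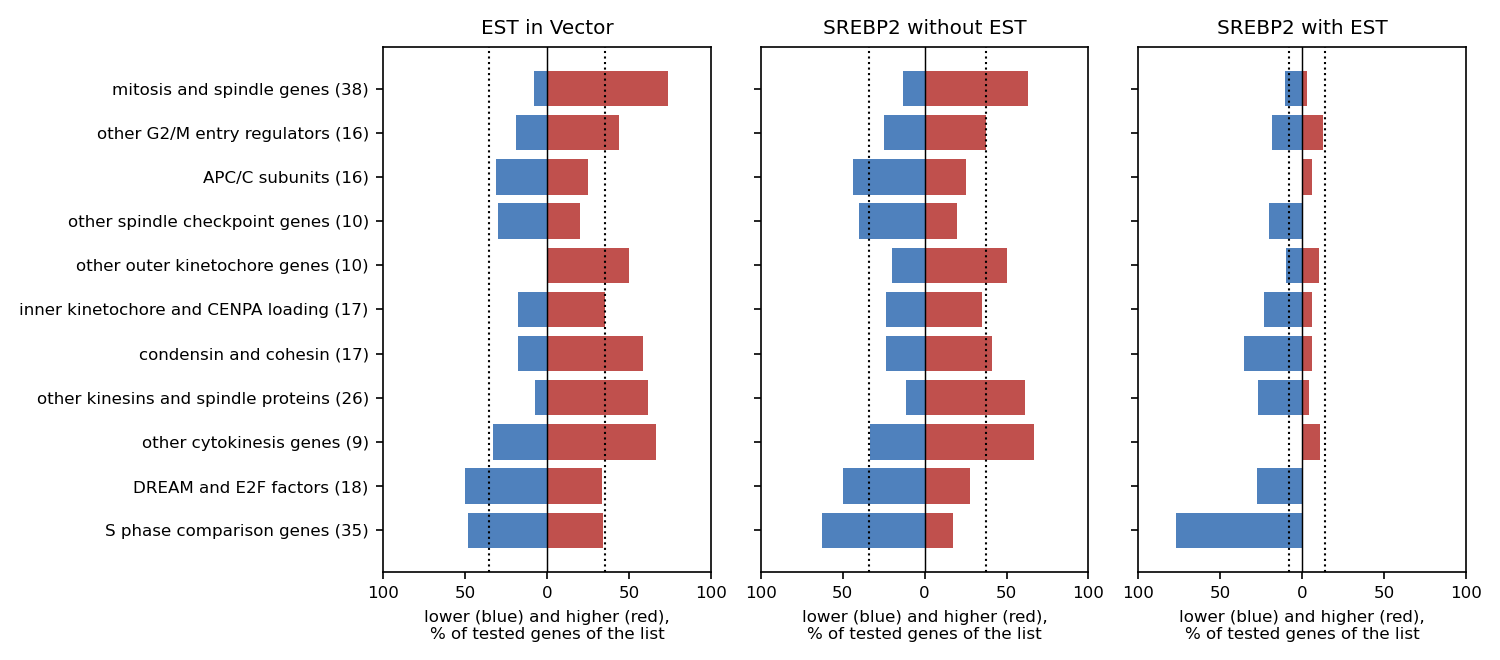
Bars give the percent of the tested genes of each list (number in brackets) called higher (red, right) or lower (blue, left) at an adjusted p under 0.05, and dotted lines give the same percent over all tested genes. With EST in Vector, 73.7% of the mitosis and spindle genes were higher and 7.89% lower, and with SREBP2 on top of EST, 77.1% of the S phase genes were lower.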

How the data were processed

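Total RNA of 12 libraries (4 groups of 3) was enriched for poly(A) RNA and sequenced on the DNBSEQ platform with single-end reads. The authors deposited one gene table of estimated counts without normalization, in which 66.5% of the values, zeros included, are exactly whole, as are 59.0% of those above 0. The submitters' processing notes list HISAT2 2.0.4, Bowtie2 2.2.5, RSEM 1.2.12, DESeq2 1.4.5 and the build GRCm38.p6, and which of them made the counts is not given in the sources used here. A further deposited table holds the authors' own per-transcript comparisons of groups and was not used. Genes with near-identical copies or an overlapping antisense gene may share reads, since the counting of strand is not given.

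Rounded to integers, the counts were tested with edgeR 4.0.16 (R 4.3.3): filterByExpr kept 11177 genes, TMM scaled the library totals, and the quasi-likelihood F-test was fitted to all 12 libraries with one mean per group. All p-values were adjusted by Benjamini-Hochberg over all tested genes, with 0.05 as the threshold, and fold changes carry the SE of the fit. Columns name the group but not which labelled replicate, so libraries carry the number in the column name. Columns of the same number share no stated origin, and the deviations of same-numbered libraries from their group means correlated between -0.28 and 0.07. Libraries of a group differed by more than counting noise. DESeq2 1.42.0, other scalings and filters, a replicate block and leaving out libraries were the alternatives.

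The 38 genes and all lists were chosen with earlier results of these data known. Values per library are given for a preset set of genes covering every role, for those with the largest rise and fall in a comparison and for those that spread widest, and the other genes are given by their fold changes. Genes on the related lists are named where they had the largest rise or fall of a list with EST in Vector cells, apart from Spc24, named as a subunit of the Ndc80 complex. Each of the 38 had at least 429 reads in every library, at totals of 18700959 to 19152281. CPM values are not per length, so levels are compared within a gene only. Start regions came from RefSeq (GRCm38.p6).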

Additional observations from a re-analysis of the deposited data

Results flagged for a closer look

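The EST effect differed between SREBP2 and Vector cells, by the interaction term of the edgeR fit (adjusted p under 0.05), for 26 of the 38 genes: it was lower in SREBP2 cells for 24 and higher for 2, where 29.2% and 29.8% of all tested genes were called. Without both libraries numbered 1 of the SREBP2 groups 20 were lower (25.8% of tested genes), and the calls of Ndc80, Spc25, Incenp and Kif2c were lost. The difference of the log2 fold changes (SREBP2 cells minus Vector cells) was -1.31 for both Cdc25b and Nusap1, -1.10 for Ccna2 and -1.04 for Cenpa. It was -0.87 for Anln, -0.81 for Tpx2, -0.70 for Top2a and -0.66 for Cdc25c. Kif23 stood at -0.60, Bub1 at -0.59, Cenpe at -0.54 and Aurka at -0.43. Values of -0.37 for Kif4, -0.35 for Ttk, -0.34 for Ect2 and -0.32 for Plk1 followed. Ccnb1 and Ccnb2 both stood at -0.30, Ndc80, Ube2c and Spc25 all at -0.27, Kif2c at -0.21, Kif11 at -0.18 and Incenp at -0.16. The values above 0 were those of Espl1 (0.14) and Bub1b (0.16). In SREBP2 cells themselves no EST change passed the test for any of the 38 in the same fit. The values there ran from -0.12 to 0.15, so the interaction largely repeats the EST change in Vector cells with its sign turned. It is not a separate result. With 3 libraries in each group, no test for a single outlying library was made.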

How the results depend on the processing

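Brackets give the same counts over all tested genes. With EST in Vector cells, 26 to 29 of the 38 genes were higher and 2 to 4 lower over the alternatives other than leaving out 1 library (3461 to 4085 and 3578 to 4420, of 10082 to 17167 tested). When 1 library was left out, 25 to 28 were higher and 2 to 4 lower (3400 to 4023 and 3764 to 4112, of 11309 to 11334). With SREBP2 without EST, library totals alone gave 8 lower (37.7% of tested genes) and the replicate block 3 (3383 of 11177). Leaving out 1 library gave 18 to 25 higher and 2 to 7 lower (3708 to 4256 and 3580 to 3897), with 2 lower without Vector library 1. For SREBP2 with EST, DESeq2 gave 9 lower (1064 of 11177) and relative log expression scaling 0 higher and 11 lower (1434 and 1167 of 11177). Library totals gave 0 and 16 (11.6% and 15.8%) and the replicate block 0 and 2 (1005 and 203 of 11177). Leaving out both libraries numbered 1 gave 5 and 9 (16.8% and 14.0%), and 1 library 0 to 3 higher and 2 to 11 lower (1263 to 1798 and 510 to 1286). The counts were 3 and 11 without SREBP2 library 1 (1798 and 1286 of 11328). Without SREBP2 library 5, 7 were lower (975 of 11334). None was higher without any 1 Vector+EST library or SREBP2+EST library 2 or 5, and 2 were without SREBP2+EST library 1. The lower count was 2 without Vector+EST library 1 (518 of 11330) or SREBP2+EST library 5 (554 of 11334). EST in SREBP2 gave 4 higher without both libraries numbered 1 (698 higher and 869 lower over all 11292 genes then tested) and 0 in every other alternative. For SREBP2 against Vector+EST, library totals gave 19 lower (16.7%), the fit of only the libraries compared 5 (700 of 10814) and the replicate block 4 (513 of 11177). Leaving out both libraries numbered 1 gave 1 higher and 20 lower (18.7% and 15.7%), and 1 library 0 higher and 3 to 17 lower (1294 to 1859 and 591 to 1375). The lower count was 17 without SREBP2 library 1 (1375 of 11328) and 3 without SREBP2 library 3 (591 of 11326). It was 4 without Vector+EST library 3 or 5 (617 of 11332 and 647 of 11324) and 5 without Vector+EST library 1 (654 of 11330). At library totals 42.2% of all calls in that comparison were higher, not 61.7%. The interaction had 3 higher with at least 10 counts in every library (3447 of 10082) and 20 lower (25.8%, median -0.18) without both libraries numbered 1. It had 1 higher with DESeq2 (3173 of 11177) and with no filter (3232 of 17167), and 0 with the replicate block (2701 of 11177). With 1 library left out, 0 to 2 were higher and 21 to 25 lower (3147 to 3425 and 2860 to 3268). The higher count was 0 without Vector+EST library 3 or SREBP2+EST library 1. It was 1 without Vector library 1, SREBP2 library 1 or 5, or Vector+EST library 5. The interaction has no value from fewer groups, since it needs all 4. The numbers 1 and 5 occur in every group but do not pair the libraries, so the replicate block shares only a number. In that block 26 were higher and 2 lower with EST in Vector (3503 and 3578 of 11177). The causes of these shifts were not tested.

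In every comparison, no called gene of the 38 turned its sign under any alternative run. Among genes that were not called, signs turned under at least 1 alternative for 0 of 7 with EST in Vector, 6 of 9 with SREBP2 without EST, 6 of 33 with SREBP2 with EST, 21 of 38 with EST in SREBP2, 6 of 30 for SREBP2 against Vector+EST and 5 of 12 for the interaction. Those in SREBP2 without EST were Nuf2 (-0.015 with DESeq2, -0.015 with relative log expression, -0.045 with library totals, -0.017 with at least 10 counts in every library, -0.00119 with only the libraries compared, -0.048 without both libraries numbered 1), Cenpf (-0.00848 with library totals, -0.098 without both), Cdc20 (-0.026) and Cdca8 (-0.00863) with library totals, Ttk (-0.024 without both) and Birc5 (0.00883 in the replicate block). With 1 library left out, the values of Nuf2 ran from -0.052 to 0.033, of Cenpf from -0.057 to 0.12, of Cdc20 from -0.011 to 0.066 and of Cdca8 from -0.00236 to 0.072, and the Cdc25b value for EST in SREBP2 from -0.043 to 0.088 (below 0 without SREBP2+EST library 5). The SEs of the log2 fold changes, 0.03 to 0.11, limit what 3 libraries a group can resolve.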
